A study of Rattus norvegicus with 99 samples.

Results

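Pulmonary artery banding (PAB) loads the right ventricle (RV), and the left ventricle (LV) of the same heart pumps against an unbanded aorta. LV tissue of rats in right heart failure was therefore compared with LV tissue of sham-operated rats, to see which genes respond in the ventricle that the band does not load. The libraries were chosen by their labels: 3 LV libraries of decompensated PAB animals (PAB-F) and 5 of older shams, together 8 of the 99 libraries of the series. The older shams are 2 animals operated with the PAB group (Sham-RF) and 3 operated with the aortic banding group (Sham-LF). All animals were male F1 offspring of a Wistar Kyoto mother and a Lewis father. PAB-F and Sham-RF animals were 27 weeks old and 21 weeks past surgery by their labels, and Sham-LF animals were 30 weeks old and 24 weeks past surgery (the study's text gives other ages). A clip set loosely around the vessel tightens as the animal grows. Each animal gave 1 polyadenylated RNA library from LV, from the interventricular septum (Spt) and from RV, so each library is 1 animal, and chambers of an animal are paired. The 4 animals with aortic banding in failure (AOB-F, 30 weeks old, 24 weeks past surgery), whose LV carries the load itself, and the Spt and RV of the PAB-F animals serve only to place the LV values.

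Pressure load makes heart muscle cells switch on a fetal and stretch programme. Its best known members are the natriuretic peptides Nppa and Nppb, the skeletal muscle actin Acta1, the slow myosin Myh7 and the titin-linked ankyrin repeat proteins Ankrd1 and Ankrd23, and fibroblasts add collagen around the cells. In right heart failure the LV is underfilled, shares the septum and the bent heart wall with the RV, and receives the same hormones from the blood.

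The 8 libraries held 12.9 to 19.4 M (mega) counts, and the 10 most abundant genes took 12.6 to 14.4% of them. Levels are given as CPM, a gene's counts scaled to the library total, on 1 scale for all 36 libraries of the failure stage. All 6 ventricular muscle genes fixed as markers were abundant in the 8 libraries, with Myh6 at 12700 to 14800 CPM and Tnnt2 at 16700 to 22700 CPM. The patterning factors Irx1 and Irx2 were lower in RV than in LV in 12 of 12 failure-stage animals, with RV minus LV differences of -3.19 to -0.83 and -3.01 to -0.91 on the log2 scale. Over 36 genes that separated the ventricles in 6 young shams, the mean RV minus LV difference in the expected sense had a median of 1.67 on the log2 scale in the 8 animals. Among these 8 it was lowest in PAB-F replicate 2, at 0.0955, with 0.693 in PAB-F replicate 3. Of all 12 failure-stage animals 11 were above 0, and AOB-F replicate 4 was at -0.362. Those 36 genes include the load genes Nppa, Nppb, Ankrd23, Tceal7 and Penk. PAB-F replicate 1 stood apart in its RV, as given with the load genes below.

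No gene passed in LV upon PAB. Of 11341 genes tested, 0 had a Benjamini-Hochberg adjusted p under 0.05 by edgeR's quasi-likelihood test (0% called), and 0 did by DESeq2. An unadjusted p under 0.05 was found for 197 genes by edgeR (1.74%), 101 higher and 96 lower, and for 183 by DESeq2, where evenly spread p-values would place 567. The count of passing genes was 0 in each of the 8 fits that left out 1 library, and 160 to 283 genes then had an unadjusted p under 0.05. Against Sham-RF alone, the shams of the same age, edgeR again called 0 of 11484 genes, with 226 at an unadjusted p under 0.05 (1.97%), while DESeq2 called 4 genes, described below.

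The intervals of this fit, which also holds the AOB-F libraries, say how large a change could have been missed. The median size of the fold change over all genes was 0.0752 on the log2 scale, and the median half-width of its 95% interval was 0.287. For 10506 genes (92.6%) the whole interval lay within a 2-fold change in either direction, and 41 genes (0.362%) had an estimate beyond 2-fold. In RV of the same PAB-F animals against RV of the same shams, the median size was 0.208, and 2336 of 11309 genes (20.7%) had an unadjusted p under 0.05, but there too edgeR called 0 genes (DESeq2 107), with an interval half-width of 0.339. In Spt the median size was 0.140, with 1655 of 11249 genes (14.7%) at an unadjusted p under 0.05 and 0 called (DESeq2 9), but 1001 called without Sham-LF replicate 3. The aortic-banded LV, tested in the same fit and against the same shams as the LV of PAB-F, had 151 passing genes (1.33%), 107 higher and 44 lower. That count was 13 without AOB-F replicate 1 and 8 without AOB-F replicate 4, and 278 and 1091 without replicates 2 and 3.

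Nppa, the gene of atrial natriuretic peptide, was at 873, 1390 and 658 CPM in LV of PAB-F replicates 1 to 3. It was at 626 and 502 CPM in Sham-RF and at 821, 820 and 606 CPM in Sham-LF. The groups overlapped, and the log2 fold change was 0.53 ± 0.52 (SE), with a 95% interval from -0.59 to 1.65. In RV the same animals had 290, 5700 and 5330 CPM, where the shams had 49.2 to 1260 CPM, and the log2 fold change was 3.62 ± 1.36. The atrial myosin light chain Myl7 was at 556 CPM in RV of Sham-LF replicate 3, the sham with the highest RV Nppa, and higher still in RV of PAB-F replicate 3, against 2.15 to 76.4 CPM in the other 6 RV libraries, and the part of atrial tissue in the RV values was not tested. Nppb, the gene of B-type natriuretic peptide, was at 317, 534 and 420 CPM in LV of PAB-F and at 278 to 376 CPM in the shams, for a log2 fold change of 0.33 ± 0.27. It was at 175, 874 and 596 CPM in RV of PAB-F, above the 47.5 to 150 CPM of every sham RV. By in situ hybridization on whole heart sections, the study describes more Nppb signal in both ventricles upon PAB. In its counts of signals, only Ankrd23 changed significantly in LV.

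**Figure D1:**
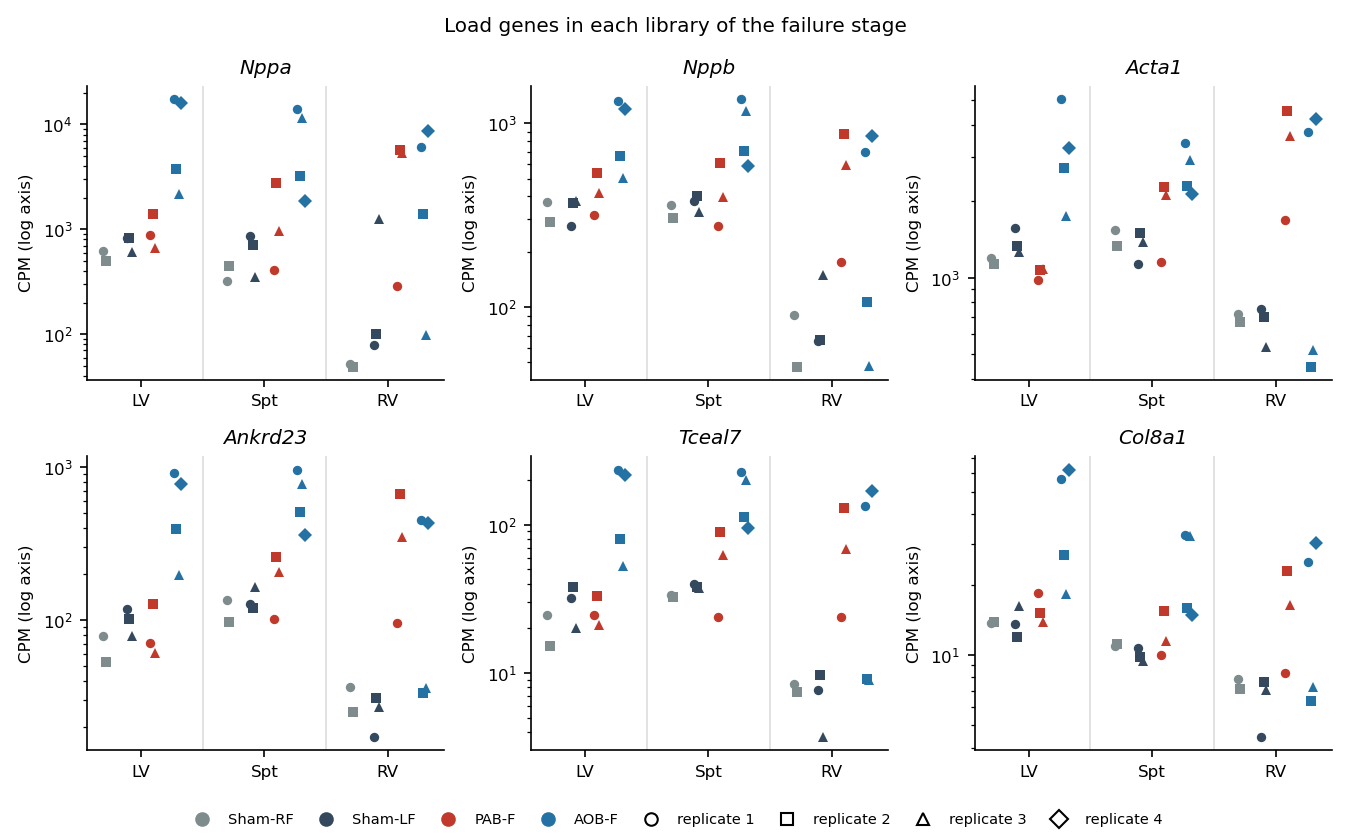
CPM (log axis) of Nppa, Nppb, Acta1, Ankrd23, Tceal7 and Col8a1 in each failure-stage library, by chamber; colours give the group and symbols the replicate number. In LV the PAB-F libraries (red) lie among or near the shams (grey and dark), while in RV replicates 2 and 3 of PAB-F lie far above them and replicate 1 lies closer; Ankrd23 is at 60.8 to 127 CPM in LV of PAB-F and at 52.9 to 118 CPM in the shams.

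Ankrd23 differed between the ventricles in its estimates. In LV it was at 70.3, 127 and 60.8 CPM in PAB-F and at 52.9 to 118 CPM in the shams, a log2 fold change of 0.01 with a 95% interval from -0.88 to 0.90. In RV it was at 95.9, 662 and 350 CPM in PAB-F and at 17.2 to 36.5 CPM in the shams, a log2 fold change of 3.77 ± 0.82. So the upper limit in LV lay below the RV estimate, and below the log2 fold change of 2.74 in the aortic-banded LV (adjusted p = 0.0135, edgeR quasi-likelihood test). By in situ hybridization on heart sections, the study found Ankrd23 significantly changed in LV too. Tceal7, a transcription elongation factor-like gene, was alike in its levels, with 24.7, 32.9 and 21.1 CPM in LV of PAB-F against 15.2 to 38.2 CPM in the shams, and 24.0 to 130 CPM against 3.70 to 9.69 CPM in RV. Its log2 fold change was 0.02 in LV, with an interval from -0.93 to 0.96, and 3.35 ± 0.87 in RV.

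Acta1 was the 1 load gene whose groups did not overlap in LV, and it was on the lower side. Its LV levels were 982, 1070 and 1080 CPM in PAB-F, 1200 and 1130 CPM in Sham-RF, and 1570, 1330 and 1260 CPM in Sham-LF. The log2 fold change was -0.31 ± 0.24 and did not pass (unadjusted p = 0.221, edgeR). That fit also holds the AOB-F libraries, and on the 8 libraries alone the SE was smaller, with -0.32 ± 0.11 for Acta1 (unadjusted p = 0.0178) and 0.53 ± 0.23 for Nppa (unadjusted p = 0.0392), where again no gene passed. Over all genes tested in LV, 1.34% had every PAB-F library below every sham library and 1.24% had every one above. In RV, Acta1 was at 1690 to 4520 CPM in PAB-F and at 533 to 750 CPM in the shams. Myh7 and Ankrd1 had log2 fold changes of 0.16 ± 0.20 and 0.11 ± 0.18 in LV, and 1.06 ± 0.33 and 0.67 ± 0.31 in RV. Penk, which encodes the enkephalin precursor, had -0.17 ± 0.20 in LV and 1.38 ± 0.42 in RV. None of these genes passed the test in LV or RV of PAB-F. In the aortic-banded LV, Nppa, Nppb, Acta1, Myh7, Ankrd1, Ankrd23 and Tceal7 passed, with log2 fold changes between 0.79 for Ankrd1 and 3.88 for Nppa, and Penk did not (0.34).

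**Figure D2:**
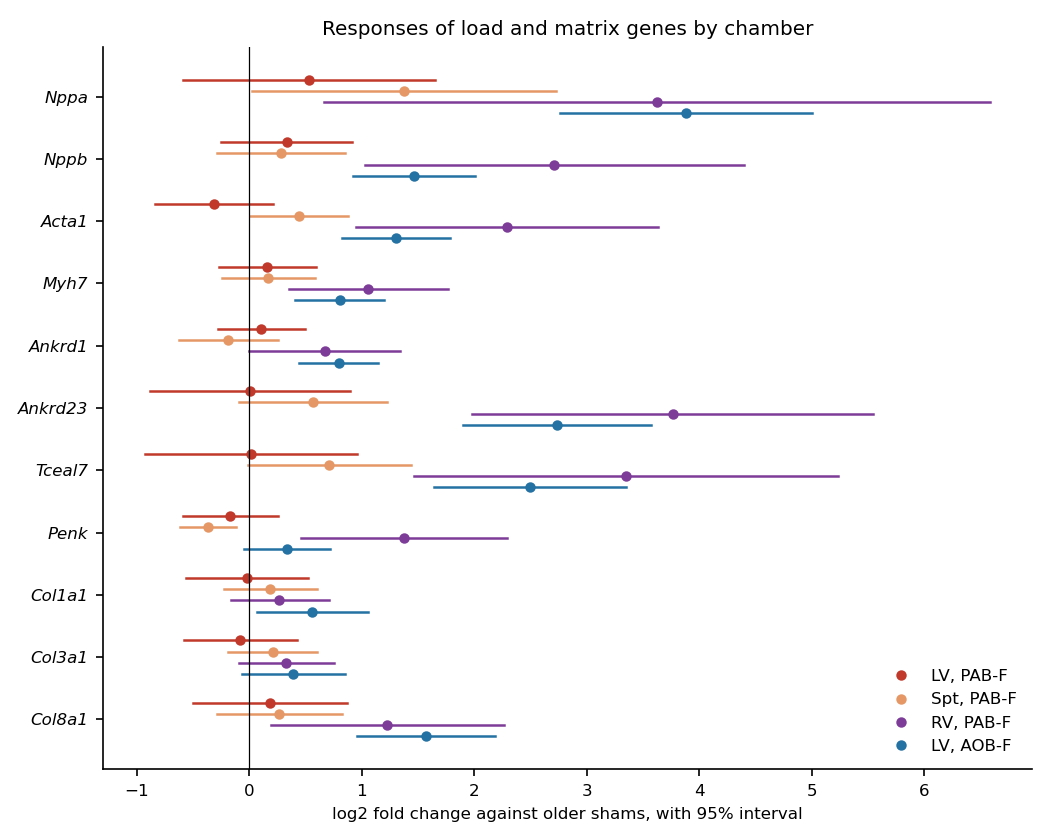
Log2 fold change against older shams with its 95% interval (edgeR) for 11 load and matrix genes, in LV, Spt and RV of PAB-F and in LV of AOB-F. Every interval for LV of PAB-F (red) crosses 0; those of Ankrd23 and Tceal7 end at 0.90 and 0.96, below the RV estimates of 3.77 and 3.35.

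The 16 measured genes of the load and stretch list show the same. In LV of PAB-F 7 were higher and 9 lower, where 48.3% of all genes were higher, with a median log2 fold change of -0.03 (-0.00484 over all genes tested); none of the 16 passed, and 0 reached an unadjusted p of 0.05 in the fit with AOB-F. The interval lay within 2-fold for 14 of them. The lowest p belonged to Rcan1, the calcineurin-responsive regulator of calcineurin, with 330, 432 and 408 CPM against 357 to 593 CPM in the shams and a log2 fold change of -0.33 ± 0.20. The actin crosslinker Flnc had -0.16 ± 0.12. In RV of the same animals 16 of 16 were higher, with a median of 1.22 and 14 at an unadjusted p under 0.05; in Spt 12 of 16 were higher, with a median of 0.22; and in the aortic-banded LV 16 of 16 were higher and 10 passed. Over all genes 50.4% were higher in RV, 50.1% in Spt and 52.9% in the aortic-banded LV. An unadjusted p under 0.05 was found for 1.74% of all genes in LV of PAB-F and 20.7% in RV. In the aortic-banded LV 1.33% of all genes passed.

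The animals differed from each other in the same order in each chamber. Taking each gene's log2 level relative to the sham mean of its chamber, the median over the 16 load genes was -0.24, 0.24 and -0.08 in LV of PAB-F replicates 1 to 3, -0.24, 0.49 and 0.19 in their Spt, and 0.38, 1.57 and 1.26 in their RV. The shams ranged from -0.20 to 0.23 in LV, from -0.17 to 0.11 in Spt and from -0.03 to 0.08 in RV. So replicate 2 had the highest value in all 3 chambers and replicate 1 the lowest. In LV, replicate 2 stood level with the highest sham and replicate 1 just below the lowest, while in RV all 3 were above every sham. With 3 animals this order is given as a description. Without replicate 2 the LV log2 fold change of Ankrd23 was -0.39 and that of Myh7 -0.16.

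**Figure D3:**
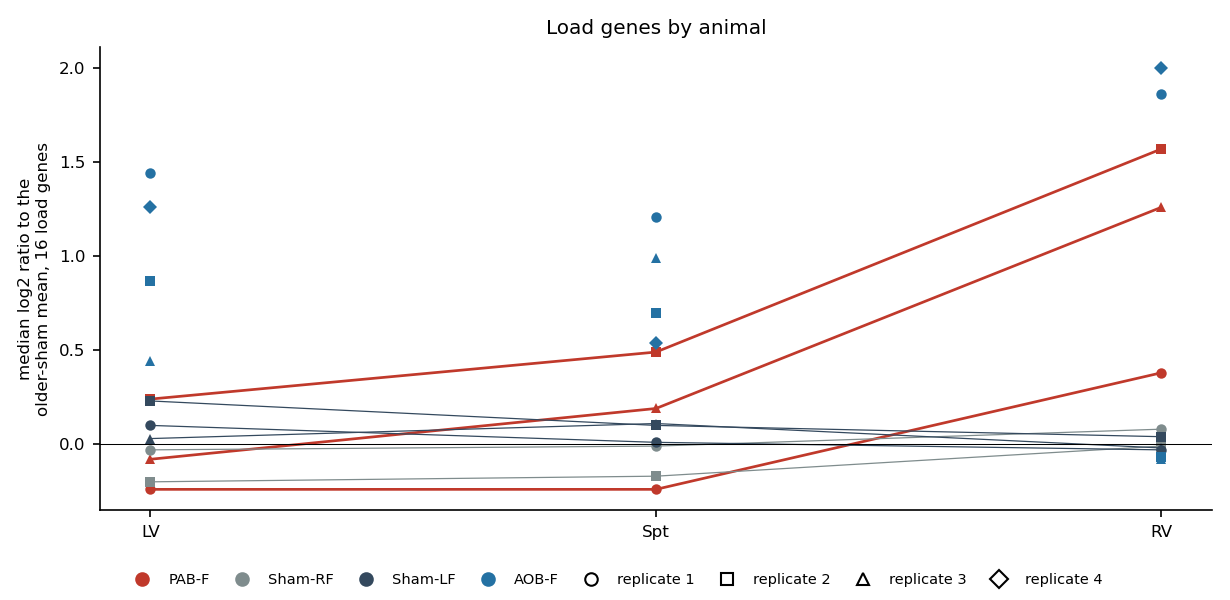
Median over 16 load genes of the log2 ratio to the older-sham mean of the same chamber (y axis) in LV, Spt and RV; lines join the chambers of 1 PAB-F or sham animal, and AOB-F libraries are points. PAB-F values run from -0.24 to 0.24 in LV, inside or next to the sham range, and from 0.38 to 1.57 in RV, above it.

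Whether the response to PAB differed between the ventricles was tested within animals, on the 24 LV and RV libraries of the failure stage with the animal as a block. Of 11654 genes, 4 passed (0.0343%), all lower in RV relative to LV, and 2463 (21.1%) had an unadjusted p under 0.05. Eno3, the muscle enolase of glycolysis, was at 566, 595 and 629 CPM in LV of PAB-F and at 555 to 706 CPM in LV of the shams, but at 313 to 564 CPM in RV of PAB-F and at 913 to 973 CPM in RV of the shams. The difference of its log2 responses, RV minus LV, was -1.17 ± 0.18 (adjusted p = 0.041, edgeR quasi-likelihood test). Pdp2, a phosphatase that activates pyruvate dehydrogenase, was at 23.6 to 29.1 CPM in LV of PAB-F against 20.1 to 24.7 CPM in the shams, and at 17.4 to 24.5 CPM against 28.2 to 33.8 CPM in RV. Its difference was -0.89 ± 0.13 (adjusted p = 0.0389). Colq, the collagen-tailed anchor of acetylcholinesterase, had a difference of -0.84 ± 0.12 and the uncharacterised gene RGD1306750 one of -1.56 ± 0.22 (adjusted p = 0.0389 for both). In LV alone the log2 fold changes of the 4 genes were -0.08, 0.26, -0.20 and 0.02, with none passing.

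The 4 genes of lowest p that were higher in RV relative to LV did not pass. They were Gpr155, a cholesterol-sensing lysosomal membrane protein (0.89 ± 0.15), the small GTPase gene Rnd1 (2.29 ± 0.39), the metalloreductase Steap2 (1.13 ± 0.20) and Ankrd23 (3.44 ± 0.64), each with an adjusted p of 0.0697 (edgeR). All 16 load genes were higher in RV relative to LV (51.6% of all genes were) and 15 had an unadjusted p under 0.05, with 0 of 16 passing. The calls depended on the fit and on PAB-F replicate 1. Leaving out PAB-F replicate 2 or 3 or a single sham gave 0 or 1 call. A fit of the 16 libraries of PAB-F and shams called 227 genes (1.96%), 10 of them load genes, DESeq2 called 315 (2.70%), 11 of them load genes, and edgeR without PAB-F replicate 1 called 168 (1.44%), 5 of them load genes.

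The genes whose RV levels moved most upon PAB, with load genes not left out, had median changes near 0 in LV. The 50 largest RV rises among genes with an unadjusted p under 0.01, at least 1 CPM and no overlap in RV (14.7% of genes did not overlap there) had a median log2 fold change of 1.66 there, and of 0.12 in LV, where 31 of 50 were higher and 0 had an unadjusted p under 0.05. Their LV log2 fold changes ran from -0.5 to 0.8. In Spt the same genes had a median of 0.44, with 44 of 50 higher. The 50 largest RV falls had a median of -0.99 in RV, 0.02 in LV, with 26 of the 48 tested there higher and 1 at an unadjusted p under 0.05, and -0.28 in Spt, with 6 of 49 higher. In LV the falls ran from -0.57 to 0.7. Over all genes 48.3% were higher in LV and 50.1% in Spt, and 1.74% had an unadjusted p under 0.05 in LV. Both sets of 50 were chosen on the RV values, which are therefore a description. The genes that the study picked from isolated cardiomyocytes of other PAB animals gave a like picture. Of the 218 tested in LV 113 were higher, with a median of 0.00 and 0 at an unadjusted p under 0.05. In RV 159 of 217 were higher, with a median of 0.30 and 85 at such a p. Over all genes in RV 50.4% were higher and 20.7% had such a p. Cluster 2 of that list had a median of 0.00 over 40 genes in LV and 1.33 over 40 in RV. Cluster 1 had a median of 0.05 over 32 genes in LV and 0.32 over 32 in RV. Cluster 5 had a median of -0.07 over 26 genes in LV, with 7 higher, and 0.56 over 26 in RV. In isolated cardiomyocytes the study describes these clusters as raised in decompensated LV too. The LV medians of whole tissue given here differ from that description, and the reason was not tested.

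**Figure D4:**
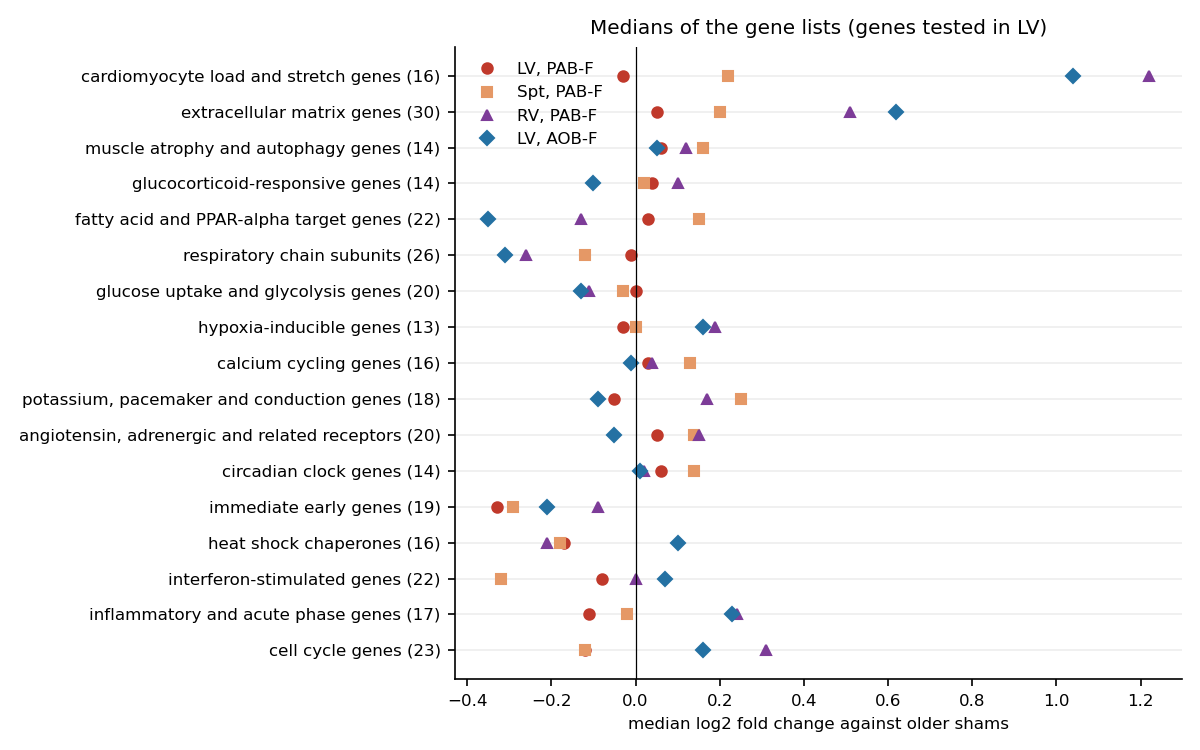
Median log2 fold change against older shams (x axis) of 17 gene lists, with the number of genes tested in LV in brackets, in LV, Spt and RV of PAB-F and in LV of AOB-F. The LV medians of PAB-F (red) lie between -0.33 for immediate early genes and 0.06; the load list is at -0.03 in LV and 1.22 in RV.

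Matrix and metabolic genes had medians near 0 in LV. Of 30 extracellular matrix genes, 20 were higher in LV of PAB-F (48.3% of all genes were), with a median of 0.05 and 0 at an unadjusted p under 0.05. Against Sham-RF alone 9 of 30 were higher (49.6% of all genes), with a median of -0.06. In Sham-LF against Sham-RF, which shares those controls, 6 of 30 were higher (49.5% of all genes), with a median of -0.2. The fibrillar collagens Col1a1 and Col3a1 had log2 fold changes of -0.02 ± 0.25 and -0.08 ± 0.23, and the short-chain collagen Col8a1, at 13.8 to 18.4 CPM against 11.9 to 16.2 CPM, had 0.18 ± 0.32, where it passed in the aortic-banded LV at 1.57. The lowest p in the list was that of the collagen crosslinking enzyme Lox (0.45 ± 0.24). By staining of sections, the study describes more collagen in LV of PAB-F, though less than in RV. Of 26 respiratory chain subunits, 18 were lower with a range from -0.11 to 0.06, and all 26 intervals lay within 2-fold; 0 of 26 were higher in the aortic-banded LV, where the median was -0.31. Of 22 fatty acid and PPAR-alpha target genes, 15 were higher (48.3% of all genes), with a median of 0.03. Against Sham-RF alone 19 of 22 were higher (49.6% of all genes), with a median of 0.07. Sham-LF against Sham-RF, which shares those controls, had 20 of 22 higher (49.5% of all genes), with a median of 0.12. In that list Angptl4, a secreted inhibitor of lipoprotein lipase, had every PAB-F library above every sham, at 2.48, 4.72 and 2.88 CPM against 0.640 to 2.40 CPM (log2 fold change 0.95 ± 0.37, unadjusted p = 0.0235, not passing). Pdk4, the kinase that shuts pyruvate dehydrogenase, was at 48.4, 187 and 118 CPM and overlapped the shams, at 52.2 to 112 CPM. The angiogenic factor Vegfa, in the hypoxia list, was at 447 to 534 CPM against 330 to 442 CPM (0.29 ± 0.13, unadjusted p = 0.045). The medians of 10 other lists were 0.00 for glycolysis (20 genes), 0.03 for calcium cycling (16), -0.05 for potassium, pacemaker and conduction genes (18), 0.05 for angiotensin, adrenergic, endothelin and natriuretic receptors (20), 0.06 for atrophy and autophagy genes (14), 0.04 for glucocorticoid-responsive genes (14), 0.06 for clock genes (14), -0.03 for hypoxia-inducible genes (13), -0.08 for interferon-stimulated genes (22) and -0.11 for inflammatory and acute phase genes (17). Some of these leaned to 1 side in their counts, where 48.3% of all genes were higher. Higher were 12 of 16 calcium cycling genes, 11 of 14 clock genes and 10 of 14 atrophy and autophagy genes. Against Sham-RF alone these lists had 13 of 16, 9 of 14 and 11 of 14 higher (49.6% of all genes). Lower were 12 of 18 potassium, pacemaker and conduction genes, but against Sham-RF alone 14 of 18 of them were higher. Sham-LF against Sham-RF also had 14 of 18 of them higher (49.5% of all genes). Across these 10 lists 4 genes had an unadjusted p under 0.05, where 1.74% of all genes tested in LV had one. They were Vegfa, Kcnd3, Cxcl10 and Ccl7, and none passed.

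Immediate early genes, which cells switch on within minutes of a stimulus and of tissue handling, leaned lower, by an amount that differed with the sham group used. Egr1 was at 11.9, 27.5 and 22.6 CPM in PAB-F, at 71.9 and 45.9 CPM in Sham-RF, and at 22.8, 14.7 and 29.0 CPM in Sham-LF. PAB-F was thus below both Sham-RF libraries and level with Sham-LF. Fos followed, at 3.57 to 7.94 CPM in PAB-F, 15.7 and 12.1 CPM in Sham-RF and 5.02 to 7.46 CPM in Sham-LF. Against the pooled shams 17 of 19 genes were lower, with a median of -0.33, and Ier3 alone had an unadjusted p under 0.05 (0.846% of all genes on the lower side). Against Sham-RF alone the median was -0.55 and 9 of 19 had such a p (1.97% of all genes). Sham-LF against Sham-RF, which shares those 2 control libraries, had a median of -0.59, also with 9 of 19 (3.23% of all genes). All 4 genes that DESeq2 called against Sham-RF (0.0348%) were activity-induced genes, named after their values were seen. They were Junb, with 55.5 to 58.5 CPM in PAB-F, 117 and 92.4 CPM in Sham-RF and 51.6 to 60.9 CPM in Sham-LF, and Ier2, Arc and Dusp1. Their log2 fold changes by edgeR were -0.89, -0.76, -0.96 and -0.89, with adjusted p of 0.654 for the first pair and 0.924 for the second.

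Heat shock chaperones showed the opposite split of the shams. Hsph1 was at 67.4, 82.0 and 76.8 CPM in PAB-F, at 70.8 and 80.7 CPM in Sham-RF, and at 116, 97.0 and 97.7 CPM in Sham-LF, so PAB-F was level with Sham-RF and below all 3 Sham-LF. Against the pooled shams 14 of 16 chaperones were lower, with a median of -0.17, and 0 had an unadjusted p under 0.05. Against Sham-RF alone 11 of 16 were higher (49.6% of all genes), with a median of 0.05. In Sham-LF against Sham-RF 15 of 16 were higher (49.5% of all genes), with a median of 0.24 and 7 at an unadjusted p under 0.05. Over all genes, Sham-LF against Sham-RF gave 0 calls by edgeR and 371 genes (3.23%) at an unadjusted p under 0.05. Both age and time after surgery differ between the sham groups and cannot be told apart.

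**Figure D5:**
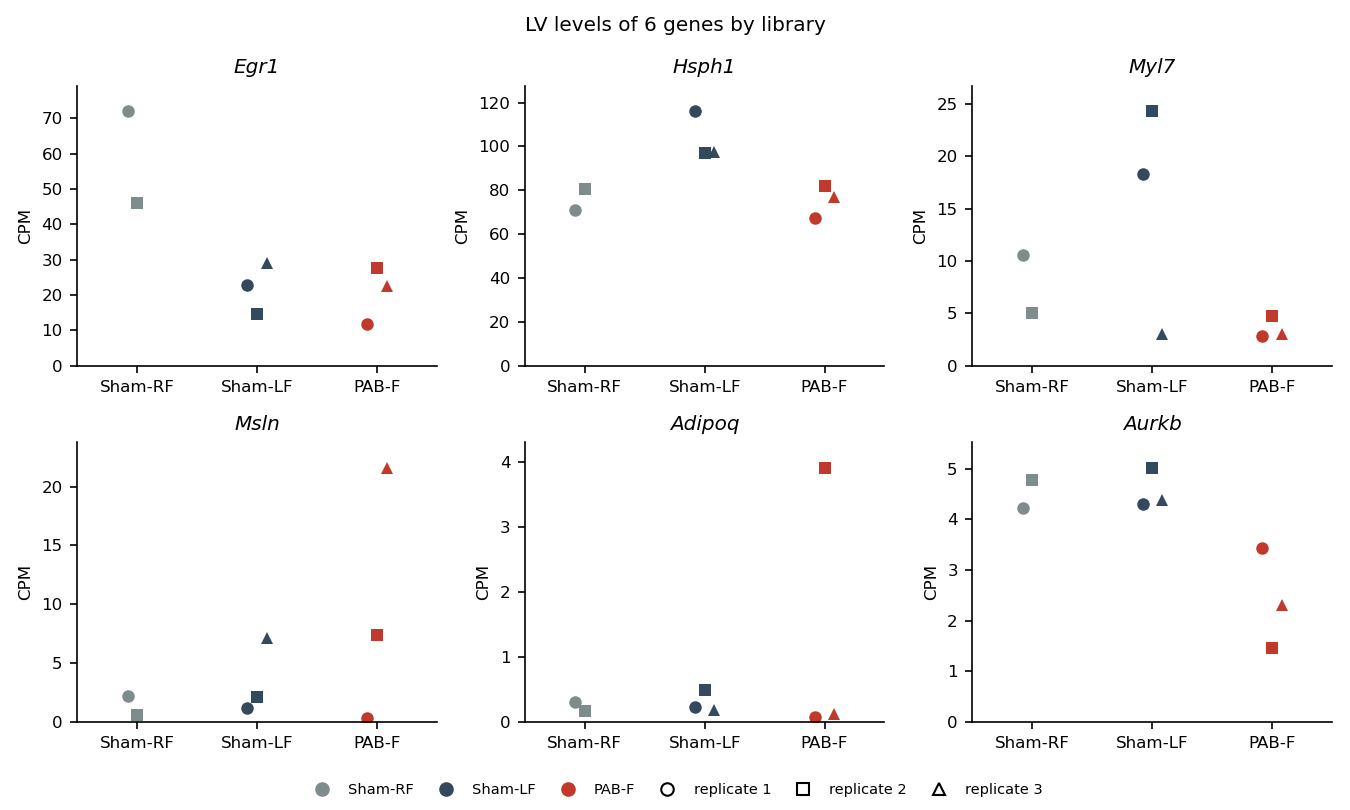
CPM of Egr1, Hsph1, Myl7, Msln, Adipoq and Aurkb in the 8 LV libraries, by group, with symbols for the replicate number; the y axes start at 0. PAB-F is level with Sham-LF for Egr1 and with Sham-RF for Hsph1, single libraries hold the high Msln (21.6 CPM) and Adipoq (3.91 CPM) values, and Aurkb is lower in all 3 PAB-F libraries.

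Some genes of dividing cells were at lower levels in LV of PAB-F. Aurkb, the kinase that corrects chromosome attachment in mitosis, was at 3.43, 1.45 and 2.31 CPM in PAB-F and at 4.23 to 5.02 CPM in the shams, with no overlap and a log2 fold change of -0.94 ± 0.23 (unadjusted p = 0.00129). Pbk, a mitotic kinase, was at 1.02 to 1.24 CPM against 1.73 to 3.00 CPM (-0.92 ± 0.24). The summed level of the cell cycle list was 189, 139 and 158 CPM in PAB-F replicates 1 to 3. In the shams it was 165 to 196 CPM, so the groups overlapped. In that list 17 of 23 genes were lower and 6 higher, where 48.3% of all genes were higher, with a median of -0.12. On the lower side 4 had an unadjusted p under 0.05, as 0.846% of all genes did: Aurkb, the survivin gene Birc5, Aurka and the topoisomerase Top2a. None passed. In the aortic-banded LV 21 of 23 were higher, and in the compensated stage of PAB (other animals) 12 of 23 were higher. In RV of PAB-F 21 of 23 were higher, and within animals all 23 were higher in RV relative to LV, with 7 at an unadjusted p under 0.05 (21.1% of all genes had one) and none passing. Fewer cells of a kind and less RNA per cell cannot be told apart in such tissue.

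The other genes of lowest p on the lower side without overlap were the secreted factor Cytl1 (58.1 to 63.7 CPM against 70.8 to 90.9 CPM, -0.38 ± 0.09), the interleukin 27 receptor gene Il27ra (-1.08 ± 0.29), the potassium channel Kcnn4 (-0.57 ± 0.16), Evi2b (-0.70 ± 0.20), the monocyte chemokine Ccl7 (2.31 to 3.64 CPM against 3.91 to 5.91 CPM, -0.75 ± 0.22), the lymphocyte transcription factor Irf4 (-0.85 ± 0.26), the imprinted RNA H19 (16.9 to 22.5 CPM against 25.0 to 50.1 CPM, -0.83 ± 0.25) and the hyaluronan synthase Has2 (-0.75 ± 0.24). All 8 macrophage markers and all 5 lymphocyte markers tested were lower, with medians of -0.14 and -0.18 and none at an unadjusted p under 0.05. Here too the sham groups differed: the medians were -0.27 and -0.38 against Sham-RF alone, and -0.15 and -0.36 for Sham-LF against Sham-RF, which shares those controls. The summed macrophage markers were at 498 to 523 CPM in PAB-F and 496 to 650 CPM in the shams, with 650 and 604 CPM in Sham-RF and 496 to 606 CPM in Sham-LF, and the lymphocyte markers at 36.5 to 37.4 CPM and 33.7 to 51.9 CPM, so both overlapped.

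On the higher side the genes of lowest p without overlap were led by Gpm6a, a neuronal membrane glycoprotein gene that mesothelium also expresses, at 7.87, 9.86 and 10.4 CPM against 5.09 to 6.92 CPM (0.64 ± 0.19, unadjusted p = 0.00583). Asb18, a muscle ubiquitin ligase adaptor, was at 20.6 to 29.3 CPM against 16.9 to 20.5 CPM (0.37 ± 0.12). The Notch target Hey1 had 0.38 ± 0.14, the matricellular gene Nov 0.48 ± 0.18, the zinc finger factor Plag1 0.86 ± 0.32 and the interleukin 17 receptor gene Il17re 1.84 ± 0.61 at 0.437 to 1.45 CPM against 0.174 to 0.415 CPM. Zdhhc20, Ptpn4, Gxylt1 and Bclaf1 had between 0.21 and 0.31. None of these 10 genes passed, nor did the 10 on the lower side (adjusted p = 1 for each, edgeR). In the LV of compensated PAB animals, which are other animals, 4 of the 10 higher genes were higher and 3 of the 10 lower genes were higher, with medians of -0.03 and -0.06.

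Markers of tissue that can cling to a piece of ventricle varied between single libraries. Mesothelial genes, from the heart's outer lining, were high in PAB-F replicate 3 (Msln at 21.6 CPM), intermediate in replicate 2 (7.40 CPM) and low in replicate 1 (0.292 CPM), against 0.582 to 7.17 CPM in the shams. All 4 genes of that list were higher, with a median log2 fold change of 1.87, and the summed level was 32.3 to 61.5 CPM against 25.5 to 34.4 CPM. The adipocyte genes Adipoq and Cidec were at 3.91 and 1.66 CPM in PAB-F replicate 2 and at most 0.488 CPM in the other 7 libraries, and Plin1 had counts in that library only. Atrial genes were low, with Myl7 at 2.84 to 4.72 CPM in PAB-F and 3.02 to 24.3 CPM in the shams, and 0 of 3 higher. Of the genes that were higher in RV than in LV of young shams, 15 of 23 were higher in LV of PAB-F, with a median of 0.36, and 4 were higher at an unadjusted p under 0.05 (C4a, Clic3, Nkain4 and Scel, where 0.891% of all genes were) and 1 lower (H19). That set contains the mesothelial genes Msln, Upk1b and Krt19. Of the 12 genes that were higher in LV of young shams, 8 were higher in LV of PAB-F, with a median of 0.02, and Irx1 was lower at an unadjusted p under 0.05 (-0.79 ± 0.34). The part of mesothelial, fat and atrial tissue in the values of other genes was not tested. Endothelial, fibroblast, smooth muscle and pericyte, lymphatic endothelial, neutrophil, red blood cell and Schwann cell lists had medians between -0.02 and 0.19 with no member at an unadjusted p under 0.05.

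At the compensated stage, 7 weeks after surgery, the same ventricle gave 0 calls by edgeR between 7 PAB-H and 7 Sham-H animals, with 10.4% of 11316 genes at an unadjusted p under 0.05. That fit had the library series as a covariate, and without it 333 genes had such a p and 0 passed. The median of the 16 load genes was 0.00 there, and 1 of 30 matrix genes was higher (46.8% of all genes), with a median of -0.18. Those animals were 11 weeks old. Leaving out the 2 whose ventricle labels an earlier look at the data had put in doubt gave 494 genes at an unadjusted p under 0.05. It also gave 1 call, the myosin binding protein gene Mybphl, with a log2 fold change of -4.53. With all animals kept, 0 of 3 atrial markers were higher, with a median of -1.34. The part of atrial tissue in these values was not tested.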

How the data were processed

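RNA of LV, Spt and RV of 33 rats was sequenced from polyadenylated libraries. Per the study's methods and the submitters' processing notes, the authors trimmed reads with Trim Galore, aligned them with STAR to the rat assembly Rnor6.0 and counted them per gene with featureCounts; whether counting used strand was not given in the sources used here. The deposited table of 17337 genes holds raw counts, and the counts alone were used. Beside them the authors deposited DESeq2-normalized counts, a signal, and FPKM values, neither of which entered a test. No coordinates are given, since the reference at hand is of another build.

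Groups came from the sample titles; the tissue field of RV samples names the left ventricle, and the title was followed. edgeR 4.0.16 in R 4.3.3 was used, with filterByExpr, TMM scaling and the quasi-likelihood test on the 12 LV libraries of the failure stage; PAB-F was contrasted with 5 pooled shams, or with Sham-RF alone. RV and Spt were fitted alike, and the compensated stage with library series as a covariate. RV minus LV was tested with the animal as a block. Benjamini-Hochberg adjustment ran over all genes tested, with a threshold of 0.05. DESeq2 1.42.0 was an alternative. Totals of the 36 failure-stage libraries were 12.1 to 19.6 M counts, and levels are CPM after 1 TMM scaling over them. The steps were tested on simulated data. The text names 11 fixed load and matrix genes, the 10 genes of lowest p in each direction among those of at least 1 CPM without overlap between PAB-F and shams (unnamed loci passed over), the 4 of lowest p in each direction for RV minus LV, and list members of lowest p. The genes, lists and tests were chosen with earlier results of these data known. Replicate libraries were compared, and no pair of a group was a duplicate. P-values set the group differences against the spread between these animals, which in the failure-stage fits includes the AOB-F animals. For RV minus LV it is the spread of the differences within animals.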

Additional observations from a re-analysis of the deposited data

Results flagged for a closer look

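In 4 genes the response to PAB differed between RV and LV by the paired edgeR quasi-likelihood test. The log2 response, RV minus LV, was -0.84 for Colq, -1.17 for Eno3, -0.89 for Pdp2 and -1.56 for RGD1306750. Each was negative in 13 of 13 alternatives and passed in 5 of them.

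In 2 of 61 groups of values, 1 library lay far from the others, where chance gives about 1 in 20 groups. Plag1 was at 1.40 CPM in LV of Sham-LF replicate 2 and at 2.55 to 3.08 CPM in the other 4 shams. The summed level of the muscle atrophy and autophagy genes was 2120 CPM in that library and 2010 to 2040 CPM in the other 4 shams.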

How the results depend on the processing

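The count of genes passing in LV of PAB-F against older shams was 0 under every alternative run, and 128 to 309 genes then had an unadjusted p under 0.05 (edgeR or DESeq2). Against Sham-RF alone it was 0 by edgeR and 4 by DESeq2. DESeq2 called 107 genes in RV, 9 in Spt, 315 for RV minus LV and 746 in the aortic-banded LV. With the libraries of both groups alone, edgeR called 23 genes in RV and 53 in the aortic-banded LV. With all 33 libraries of a chamber it called 2 and 333, and with library series added 6 and 867. Weighting both sham groups equally gave 89 in the aortic-banded LV. RV minus LV gave 0 calls without the animal block and 227 on 16 libraries. Without the 2 doubted animals the compensated stage gave 1 call. Leaving out 1 library gave 0 to 0 calls in LV, 0 to 1 in RV, 0 to 168 for RV minus LV and 0 to 1001 in Spt. The same for the AOB-F libraries, chosen after seeing the data, gave 8 to 1091. The cause of these shifts was not tested. With the replicate number as a block, edgeR called 0 genes in LV (237 at an unadjusted p under 0.05), 0 against Sham-RF alone (231), 0 in RV (1927) and 0 in Spt (1315). Same-numbered libraries of different groups are different animals and share only a number (correlation of their deviations -0.41 to 0.06 over 7 pairs). Of 495 values for 31 named genes, 488 moved by less than 1 SE, and 15 changed sign in 5 genes whose size was at most 0.16. Their SEs moved more: on the 8 libraries alone that of Acta1 was 0.11 and that of Nppa 0.23. The stated intervals hold for 3 PAB-F animals in the fit with AOB-F, and changes inside them remain possible.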
